A study of Bos taurus with 54 samples.

Results

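The DNAJ family, also called the HSP40 co-chaperones, was followed in calf blood before and after heat stress. Members were taken by name, as every gene of the count tables whose symbol is DNAJA, DNAJB or DNAJC followed by a number and at most a single further letter. This gave 45 of 32637 genes, and all 45 were found by symbol in the RefSeq gene table of the ARS-UCD2.0 cattle assembly. The samples came from 15 Holstein male calves kept in climate-controlled rooms, whose age the labels do not give. Thermoneutral control blood was drawn at 6AM before any heat, and heat stress blood at 6PM after 12 hours of heat, so the hour of the day and the heat cannot be told apart. Red blood cells were lysed before RNA was taken, so the RNA is that of the remaining blood cells in bulk. RNA samples were made into libraries with 2 kits that read the 3′ ends of mRNAs, with 27 libraries each: the SMART-Seq v4 3′ DE kit of Takara and, from Lexogen, QuantSeq 3′. Animal 20 has a single library per kit, labelled heat stress, whereas the study's design table lists a calf with a control sample alone, so animal 20 was left out and each kit was compared with 13 control and 13 heat stress libraries, 12 calves giving both.

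J-domain proteins bind HSP70 chaperones and switch on their ATPase, which lets HSP70 hold an unfolded protein, and nucleotide exchange factors then reset HSP70. Class A and class B members hand unfolded proteins to HSP70, while class C members share little beyond the J-domain and work at fixed sites such as the endoplasmic reticulum, the mitochondrial import machinery, the ribosome or the spliceosome. DNAJB1 and DNAJA1 are the cytosolic members best known as targets of the heat shock factor HSF1, and DNAJB9 is known as a target of the unfolded protein response of the endoplasmic reticulum.

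Counts on genes ran from 5140595 to 20699030 per Takara library and from 4516761 to 58521751 per Lexogen library. The deepest library was the Lexogen heat stress library of animal 15, and the next deepest Lexogen library held 15607291 counts. Levels are given as CPM, the counts scaled to library size with edgeR's TMM factors. They come from 3′ tags and are not divided by gene length, so levels of different DNAJ genes are not ranked, and where a marker gene is said to lead its list, that is by 3′ tags alone and in that kit.

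Of the 45 members, 38 had at least 10 counts in 13 or more of the 26 Takara libraries, and 36 did so in Lexogen, where DNAJB5 reached that depth in 11 libraries and DNAJC17 in 12. The other 7 members, DNAJB3, DNAJB7, DNAJB8, DNAJC5B, DNAJC5G, DNAJC6 and DNAJC22, fell short in both kits. DNAJC6, an auxilin that uncoats clathrin vesicles, came closest, with 10 counts or more in 5 Takara and 6 Lexogen libraries. DNAJB3 and DNAJB8, which are testis-type members, had no count in any of these libraries.

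In Takara, 5 of the 38 members changed after heat (edgeR quasi-likelihood test, adjusted p under 0.05 over all genes), which is 13.2% of them, beside 28.9% of the 12620 genes tested. DNAJA1, DNAJB9, DNAJC25 and DNAJC14 rose, where 18.4% of all genes rose, and DNAJC2 fell, where 10.5% of all genes fell. In Lexogen, 0 of 36 members passed the same edgeR test, beside 5.55% of 11108 genes (616 genes, which became 66 with the calf as a paired block and 0 in sample-number range 2 alone), and 4 of the members had an unadjusted p under 0.05 (DNAJB14, DNAJC1, DNAJC16 and DNAJC21, all with estimates below 0), beside 16.9% of genes. Of these reported members, DESeq2 also called 0 in Lexogen and 5 in Takara, beside 1006 and 4126 of all genes. DNAJC6, which fell short of the reporting depth, passed in Takara with DESeq2 (log2 fold change 1.88, DESeq2 adjusted p = 0.0144) and with edgeR without a filter on low counts (1.78, edgeR adjusted p = 0.0377), from levels of 0 to 1.06 CPM in controls. DNAJB7 passed in Takara with edgeR without that filter (edgeR adjusted p = 0.0281) on 7 counts in all. All 7 lay in heat stress libraries and on the strand opposite the gene, which overlaps XPNPEP3, so the level of DNAJB7 itself is uncertain. The median log2 fold change of the members was -0.02 in Takara, where the median of all genes was -0.05, and -0.23 in Lexogen, where it was -0.08. The Lexogen estimates were less precise, with a median standard error over members of 0.44 on the log2 scale against 0.15 in Takara. In Takara, 34 of 38 members had a log2 fold change between -0.5 and 0.5, and in Lexogen 25 of 36. The share of all genes within these limits is not given.

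**Figure D1:**
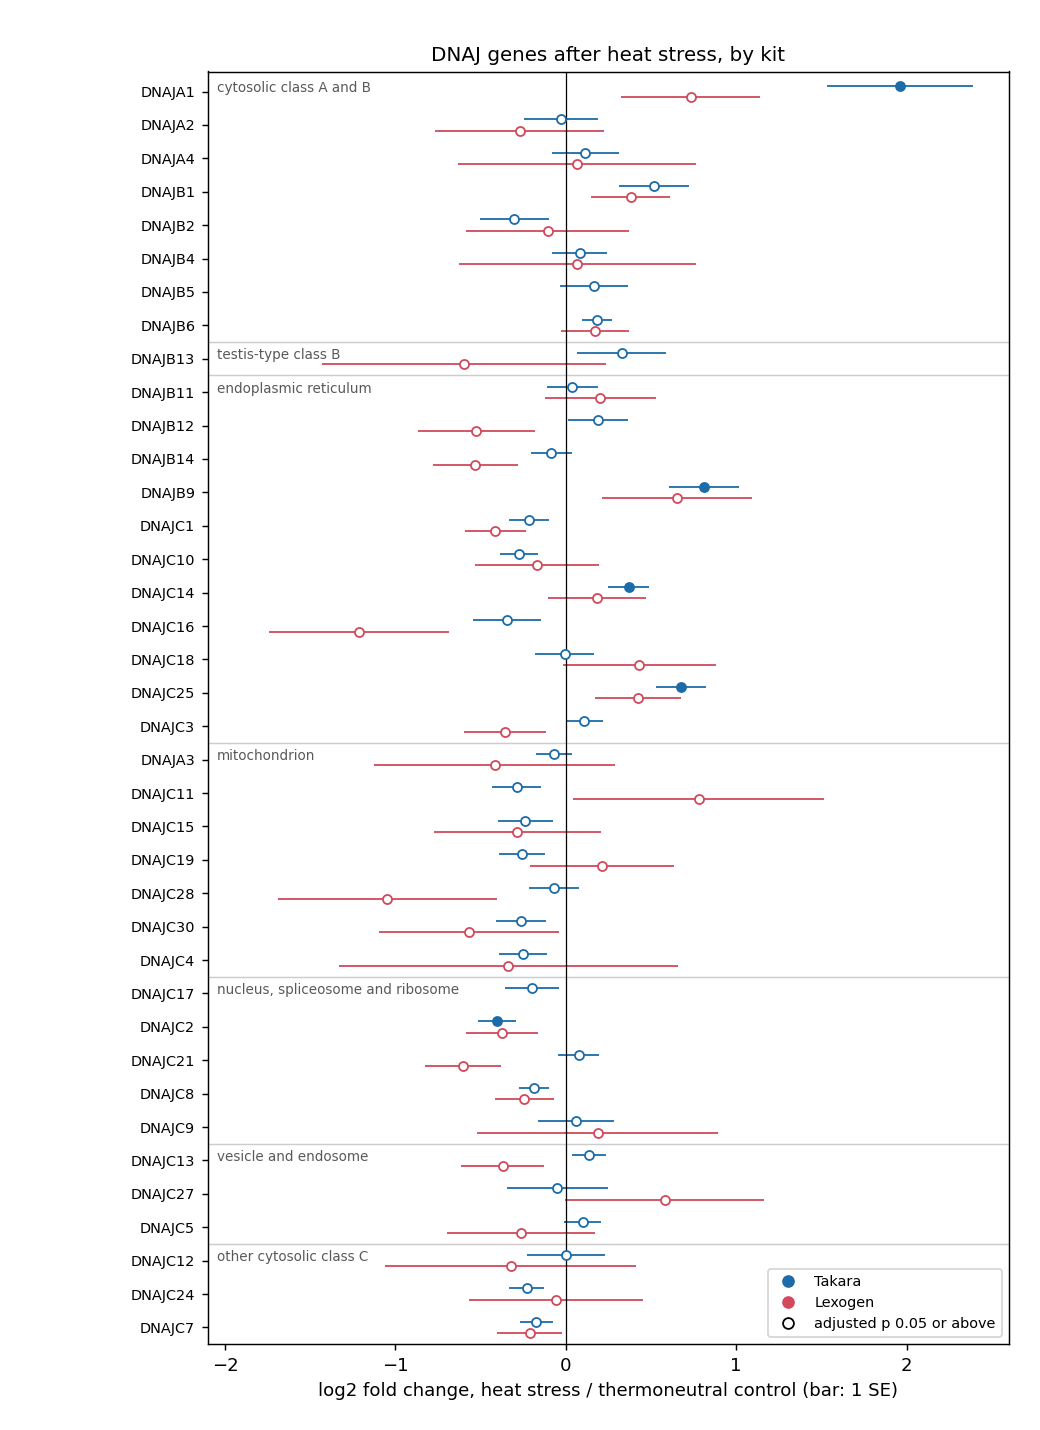
Log2 fold change of each reported DNAJ gene, heat stress over control (x axis), with genes in rows grouped by site of action, Takara in blue and Lexogen in red; bars are 1 standard error, and filled points passed the edgeR test. The 5 filled points are all Takara, from -0.41 for DNAJC2 to 1.96 for DNAJA1.

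Among the cytosolic class A and B members, DNAJA1 alone of 8 passed the Takara test, beside 28.9% of all genes. DNAJA1 works with HSC70 and HSP70 in folding and in import into mitochondria, and it lies on chromosome 8 from 74790616 to 74800322. In Takara control libraries DNAJA1 had a lowest level of 2.68, a median of 5.34 and a highest of 7.36 CPM, and after heat 3.60, 9.99 and 118.98 CPM. The groups overlapped, with 11 of 13 heat stress libraries above the highest control and a rise in 11 of 12 calves. Its log2 fold change was 1.96 ± 0.43 (SE, n = 13 and 13; edgeR adjusted p = 0.00154). The value of 118.98 CPM belonged to animal 18, and without that heat stress library the log2 fold change of DNAJA1 was 1.21 (edgeR adjusted p = 0.00291). With the calf as a paired block it was 1.33 (edgeR adjusted p = 0.0161).

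In Lexogen, DNAJA1 ran from 5.29 over a median of 13.5 to 52.8 CPM in controls, and from 5.32 over 25.7 to 135 CPM after heat. Animal 18 again held the highest heat stress value, while the highest control value was that of animal 19. The groups overlapped widely, DNAJA1 was higher after heat in 9 of 12 calves, and the log2 fold change was 0.73 ± 0.41 (edgeR adjusted p = 0.372), or 0.25 without the heat stress library of animal 18.

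DNAJB1, the HSP40 classically paired with inducible HSP70, lies on chromosome 7 from 11261227 to 11273084. In Takara it was near the detection floor: controls had 1.02, 1.32 and 2.20 CPM as lowest, median and highest level, and heat stress libraries 0.921, 2.12 and 3.87 CPM. The groups overlapped, with 6 of 13 heat stress libraries above every control, and DNAJB1 was higher after heat in 9 of 12 calves. The log2 fold change of 0.52 ± 0.21 missed the threshold (edgeR adjusted p = 0.0595). It was further from it with the calf as a paired block (0.121), with total counts on genes as library size (0.337, log2 fold change 0.26), with no filter on low counts (0.127) and without the heat stress library of animal 15 (0.124), all edgeR adjusted p. It passed without the heat stress library of animal 3 (0.0404) or of animal 32 (0.0235), without the control library of animal 41 (0.0421), and with animal 20 counted as heat stress (0.0224), all edgeR adjusted p.

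In Lexogen, DNAJB1 had 11.2, 25.2 and 54.6 CPM in controls and 20.97, 29.5 and 49.9 CPM after heat. No heat stress library exceeded the highest control, that of animal 3, although DNAJB1 was higher after heat in 10 of 12 calves. The log2 fold change was 0.38 ± 0.23 (edgeR adjusted p = 0.432). DNAJA2, DNAJA4, DNAJB2, DNAJB4, DNAJB5 and DNAJB6 did not pass in either kit where tested. Of these, DNAJB6, a class B member that keeps aggregation-prone proteins soluble, was higher after heat in 11 of 12 calves in Takara with a log2 fold change of 0.18 (edgeR adjusted p = 0.113).

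**Figure D2:**
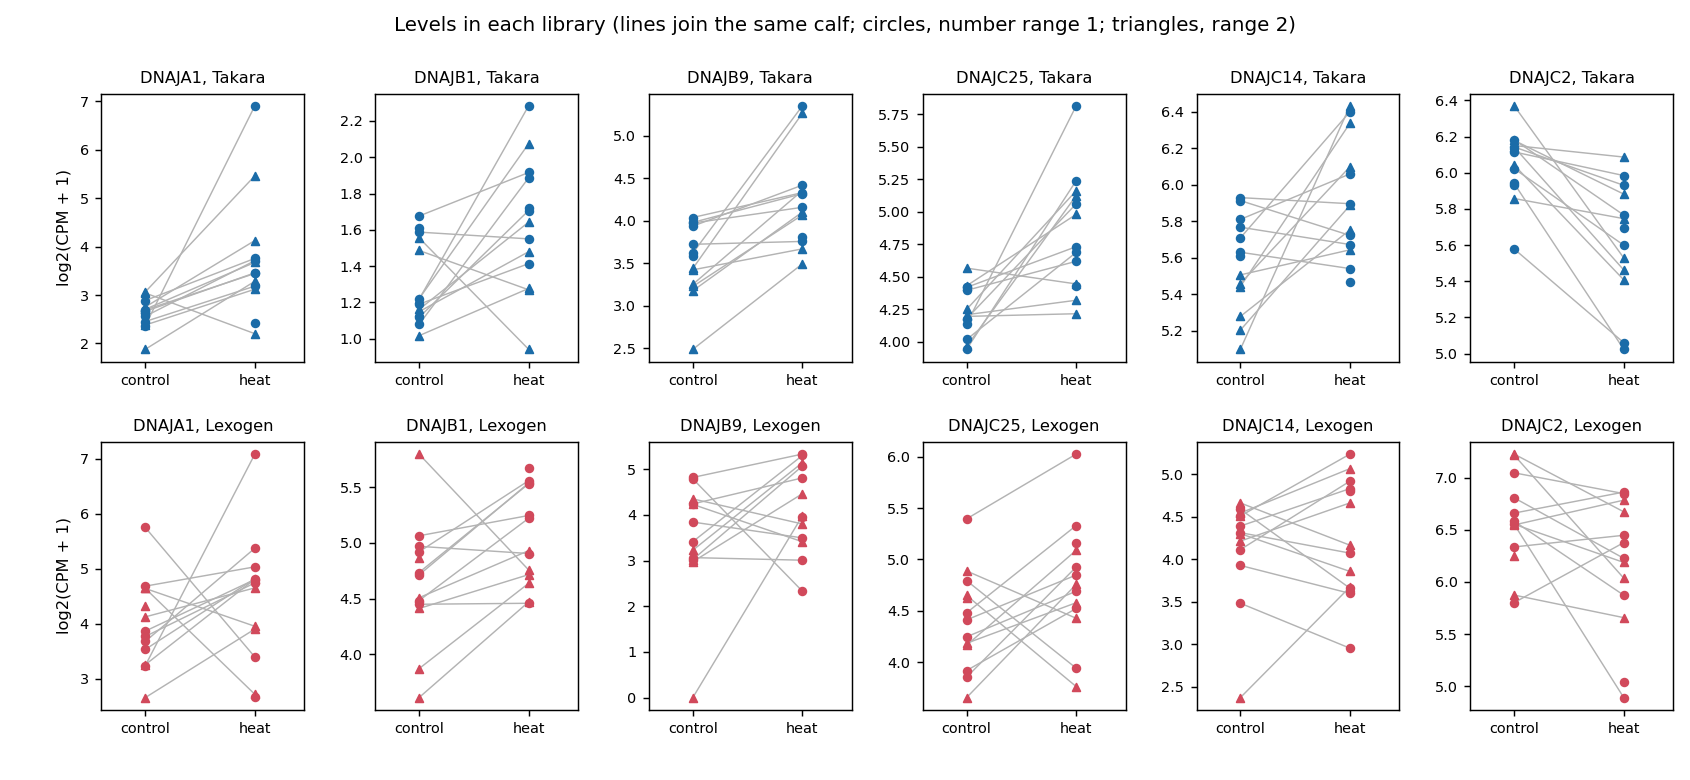
Level of 6 DNAJ genes in every library, as log2 of CPM plus 1 (y axis, its scale differing between panels), in control and heat stress, Takara above and Lexogen below; grey lines join libraries of 1 calf, and point shape gives the sample-number range. DNAJB9 rises along all 12 Takara lines and DNAJC2 falls along all 12.

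Of the 11 members of the endoplasmic reticulum tested in Takara, 3 rose, beside 18.4% of all genes, and 2 of the 3 (DNAJB9, edgeR adjusted p = 0.0529, and DNAJC14, edgeR adjusted p = 0.594) did not pass with total counts on genes as library size. DNAJB9, also named ERdj4, delivers misfolded proteins to the HSP70 of the reticulum for degradation, and lies on chromosome 4 from 59583232 to 59587901. Its Takara levels were 4.61, 10.96 and 15.4 CPM in controls (lowest, median, highest) and 10.3, 16.9 and 39.9 CPM after heat. Every one of the 12 calves was higher after heat, and 9 of 13 heat stress libraries exceeded all controls, yet the groups overlapped. The log2 fold change was 0.81 ± 0.20 (edgeR adjusted p = 0.00456). In Lexogen, DNAJB9 had 0, 9.65 and 27.2 CPM in controls and 4.02, 14.8 and 39.2 CPM after heat, overlapping widely and higher in 7 of 12 calves, with a log2 fold change of 0.65 ± 0.44 (edgeR adjusted p = 0.496).

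DNAJC25 is a membrane J-domain protein, encoded on chromosome 8 from 101055832 to 101073367. In Takara, its controls had 14.4, 17.5 and 22.7 CPM, and heat stress libraries 17.6, 25.6 and 55.3 CPM. All 13 heat stress libraries lay above the control median and 9 above the highest control, with animal 18 the highest. The rise was 0.68 ± 0.15 on the log2 scale, seen in 11 of 12 calves (edgeR adjusted p = 0.00143). In Lexogen, DNAJC25 had 11.6, 20.3 and 41.1 CPM in controls and 12.6, 26.04 and 64.2 CPM after heat, with overlapping groups, 9 of 12 calves higher and a log2 fold change of 0.42 ± 0.25 (edgeR adjusted p = 0.42), or 0.27 without the heat stress library of animal 12 (edgeR adjusted p = 0.636).

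DNAJC14, a membrane protein known for its part in the transport of a dopamine receptor and in pestivirus replication, lies on chromosome 5 from 57439128 to 57446054. Its Takara levels were 33.2, 47.8 and 60.0 CPM in controls and 43.2, 58.2 and 85.4 CPM after heat. The groups overlapped, 5 of 13 heat stress libraries lay above all controls, and 8 of 12 calves were higher. The log2 fold change of 0.37 ± 0.12 passed the test narrowly (edgeR adjusted p = 0.0242, and 0.0483 with the calf as a paired block). It missed the threshold without the heat stress library of animal 7 (0.0522), 36 (0.0564) or 40 (0.0566), all edgeR adjusted p. The Takara control libraries of animals 16, 32 and 36, all of range 2 as defined below, had over 50% of their reads on no single gene, and animals 36 and 32 held the 2 lowest control levels of DNAJC14. Leaving out these 3 libraries gave 0.27 (edgeR adjusted p = 0.124). In Lexogen, DNAJC14 had 4.18, 18.9 and 24.3 CPM in controls and 6.75, 16.9 and 36.7 CPM after heat, rising in 6 and falling in 6 of 12 calves, with a log2 fold change of 0.18 ± 0.29 (edgeR adjusted p = 0.827), which ran from 0.08 to 0.26 when 1 library at a time was left out.

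The other 8 tested members of the reticulum did not pass in Takara. DNAJC10, a disulfide reductase also named ERdj5, was lower after heat in 9 of 12 calves, with a log2 fold change of -0.27 (edgeR adjusted p = 0.0648). DNAJB11 and DNAJC3, co-chaperones of the lumen, had log2 fold changes of 0.04 and 0.11 in Takara.

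Of the members that act in the nucleus or at the ribosome, DNAJC2 fell in Takara. DNAJC2, also named MPP11 or zuotin, belongs to the ribosome-associated complex that meets new proteins as they leave the ribosome, and lies on chromosome 4 from 44531497 to 44569041. Takara controls had 46.8, 68.3 and 81.7 CPM, and heat stress libraries 31.5, 50.7 and 67.0 CPM. All 13 heat stress libraries lay below the control median, 5 lay below the lowest control, and DNAJC2 was lower after heat in 12 of 12 calves. Its log2 fold change was -0.41 ± 0.11 (edgeR adjusted p = 0.00783). In Lexogen it had 54.8, 92.97 and 149 CPM in controls and 28.6, 73.9 and 115.38 CPM after heat, overlapping, lower in 8 of 12 calves, with a log2 fold change of -0.38 ± 0.21 (edgeR adjusted p = 0.379).

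DNAJC21, which helps recycle a factor of the large ribosomal subunit, had the lowest adjusted p of the members in Lexogen. It was lower after heat in 12 of 12 calves there, with a log2 fold change of -0.60 ± 0.22 (edgeR adjusted p = 0.118), whereas the Takara value was 0.08 ± 0.12 (edgeR adjusted p = 0.663). None of the 7 mitochondrial members, which include the import motor subunits DNAJC15 and DNAJC19, passed in either kit, beside 28.9% of all genes in Takara and 5.55% in Lexogen. The 3 tested members of vesicles and endosomes (DNAJC5, DNAJC13 and DNAJC27) and DNAJC7, DNAJC12 and DNAJC24 of the cytosol did not pass in either kit, beside the same shares.

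A call in 1 kit does not show that the kits differ, so the difference between their heat effects was tested in the 24 RNA samples that have a library of each kit. With edgeR and the RNA sample as a block, 0 of 38 members and 0% of 13354 genes passed, and 2 members had an unadjusted p under 0.05, beside 3.94% of genes. For DNAJA1 the Takara log2 fold change was larger by 0.61 ± 0.42 (edgeR adjusted p = 1). The levels themselves did differ by kit. In the control samples of the same RNAs, 19 of 38 members differed, 10 higher in Takara and 9 higher in Lexogen, beside 59.9% of all genes. DNAJB1 was 18.4-fold higher in Lexogen (log2 ratio of Takara to Lexogen -4.20 ± 0.24, edgeR adjusted p = 4.26e-15) and DNAJA1 3.38-fold higher (edgeR adjusted p = 1e-05). In the other direction, DNAJC4 was 10.95-fold higher in Takara (edgeR adjusted p = 0.00116) and DNAJC11, a mitochondrial member, 8.11-fold higher (edgeR adjusted p = 5.7e-05).

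**Figure D3:**
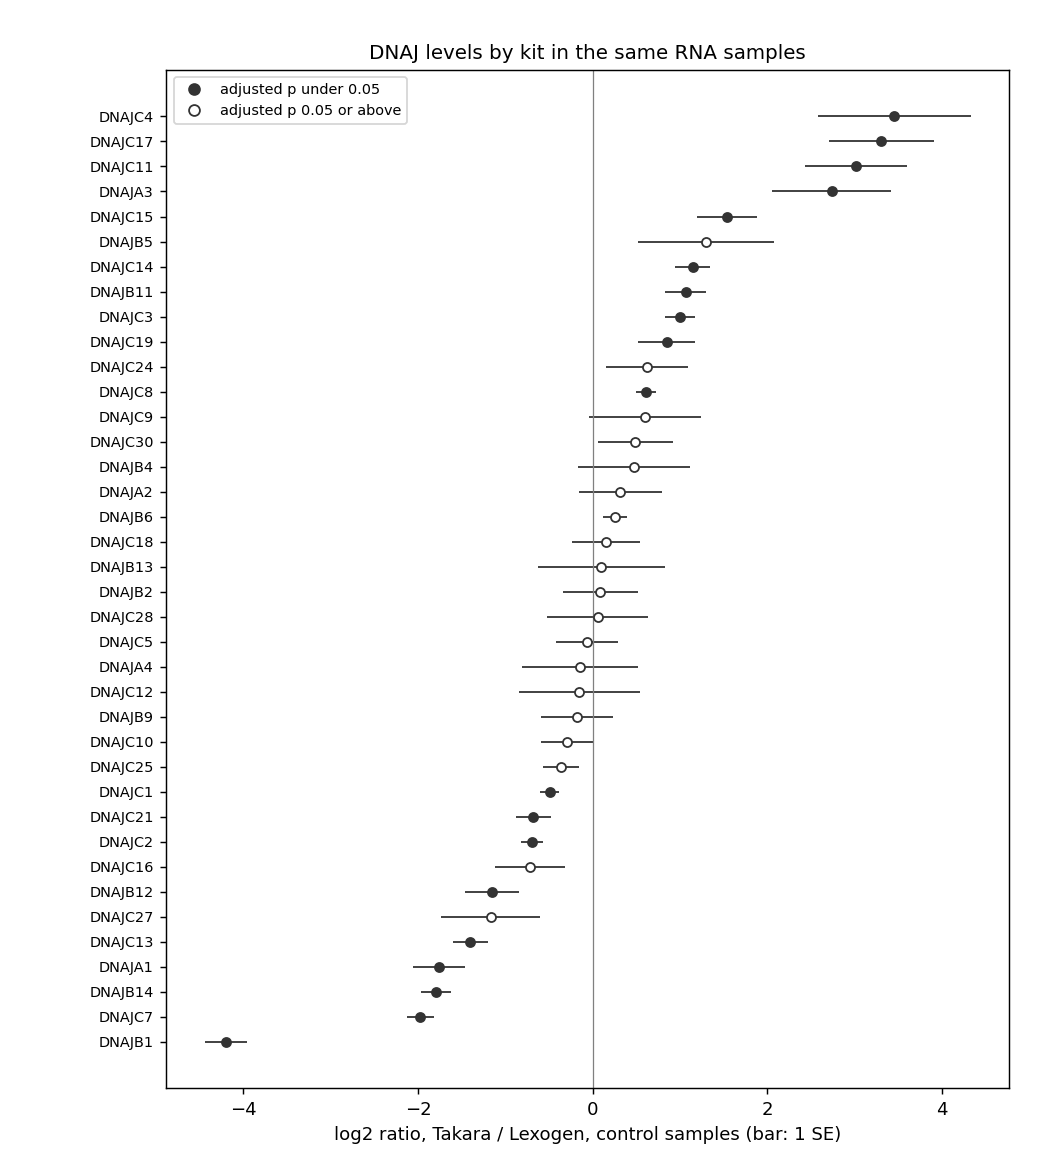
Log2 ratio of Takara to Lexogen level in control samples (x axis) for the 38 reported DNAJ genes in rows, with 1 standard error; filled points passed the edgeR test. DNAJB1 stands at the Lexogen end with -4.20, and DNAJC4 at the Takara end with 3.45.

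Sample numbers in the titles fall into a lower and a higher range of different calves, called range 1 and range 2, and the heat effects were also taken within each. In Takara, range 1 has 7 control and 7 heat stress libraries, and range 2 has 6 and 6. DNAJA1 had a log2 fold change of 2.26 ± 0.62 in range 1 and 1.5 ± 0.49 in range 2, and DNAJC25 0.79 ± 0.19 and 0.54 ± 0.21. DNAJC2 had -0.39 ± 0.17 and -0.40 ± 0.15. DNAJB9 had 0.56 ± 0.22 in range 1 and 1.20 ± 0.30 in range 2. DNAJC14 had 0.06 ± 0.14 in range 1 and 0.77 ± 0.17 in range 2, and it was higher after heat in 2 of 6 calves of range 1 and 6 of 6 of range 2. Leaving out the 3 control libraries with over 50% of reads on no single gene, range 2 gave 0.66 ± 0.23 for DNAJC14, which did not pass (edgeR adjusted p = 0.393, 9 libraries). DNAJB9 had 1.01 ± 0.39 in that fit and did not pass either (edgeR adjusted p = 0.393). The fit kept 9 libraries and its share of all genes passing is not given. Not passing there does not by itself show a smaller change. In a test of the difference between ranges, 0 of 38 members passed in Takara, beside 2.58% of genes, and 7 had an unadjusted p under 0.05, beside 16.6% of genes. DNAJC14 had the lowest adjusted p (difference 0.64 ± 0.21, edgeR adjusted p = 0.108). With the calf as a block 0 members passed as well by edgeR and 6 had an unadjusted p under 0.05, beside 2026 of 12620 genes (DNAJC14 0.62 ± 0.23, edgeR adjusted p = 0.191). Leaving out the 3 libraries gave 0.57 ± 0.24 for DNAJC14 (edgeR adjusted p = 0.349). DNAJC14 passed with total counts on genes as library size (0.81 ± 0.18, edgeR adjusted p = 0.0178), beside 164 of 12620 genes. DNAJB12 passed with same-strand counts (edgeR adjusted p = 0.0121), beside 337 of 12325 genes. In Lexogen 0 of 36 passed, beside 0.018% of genes, and 1 had an unadjusted p under 0.05, beside 7.95% of genes. DNAJA1 there had 0.96 ± 0.56 in range 1 and 0.09 ± 0.50 in range 2, and DNAJB1 0.55 ± 0.29 and 0.05 ± 0.40. DNAJB9 had 0.46 ± 0.51 and 0.92 ± 0.74, and DNAJC25 0.53 ± 0.37 and 0.22 ± 0.38. DNAJC14 had 0.21 ± 0.41 and 0.17 ± 0.46 in Lexogen (difference -0.10 ± 0.60, edgeR adjusted p = 0.99). This difference was 0.31 ± 0.65 with the calf as a block and 0.17 ± 0.62 with total counts on genes as library size. These standard errors were about as large as the Takara difference of 0.64. The Lexogen values therefore cannot show whether that kit had the contrast between ranges.

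**Figure D4:**
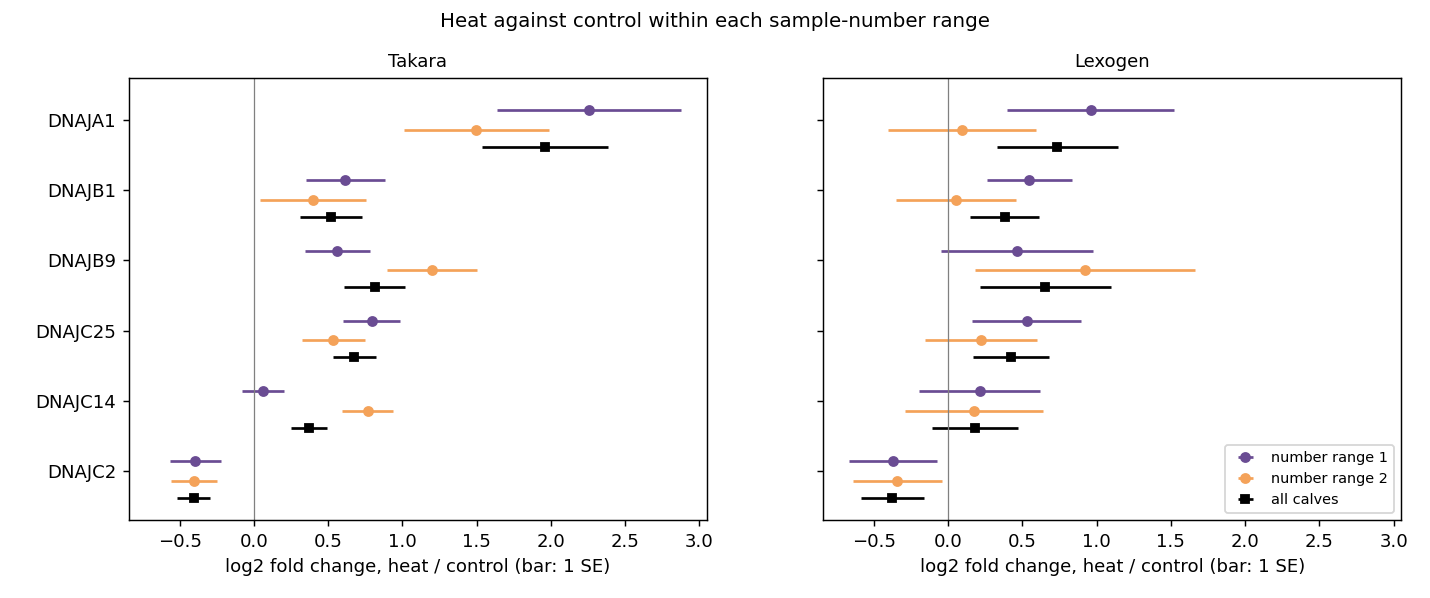
Log2 fold change of 6 DNAJ genes, heat stress over control (x axis, bars 1 standard error), within sample-number range 1 (purple), range 2 (orange) and over all calves (black), for each kit. In Takara, DNAJC14 lies at 0.06 in range 1 and 0.77 in range 2.

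With total counts on genes as library size in place of TMM, the median of all genes in Takara moved from -0.05 to -0.27 and that of the members from -0.02 to -0.21. With this common shift the sign turned for 12 of 38 members whose estimates were at most 0.19 from 0 (DNAJA4, DNAJB4, DNAJB5, DNAJB6, DNAJB11, DNAJB12, DNAJC3, DNAJC5, DNAJC9, DNAJC12, DNAJC13 and DNAJC21), none of which was called. DNAJA1 (1.56), DNAJC25 (0.38) and DNAJC2 (-0.58) still passed under that scaling, while DNAJB9 (0.50, edgeR adjusted p = 0.0529) and DNAJC14 (0.08, edgeR adjusted p = 0.594) did not. DNAJC7, DNAJC10, DNAJC24 and DNAJC30 passed there as lower. With DNAJC2 this made 5 of 38 members lower, beside 2185 of 12620 genes, and 2 higher, beside 1303 genes.

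The counts used ignore strand, and some members have few counts of their own strand. DNAJB13, a sperm flagellum protein, had 952 Takara counts, of which the stranded columns place 11 on the strand of the gene and 941 on the opposite strand, and its level is therefore uncertain. DNAJC24, which acts in diphthamide synthesis, had 2470 counts on its strand and 3637 on the opposite strand in Takara, and it overlaps IMMP1L in the annotation. DNAJC9, a histone chaperone, had 2054 and 1915, and it overlaps FAM149B1. STAR assigns a read that lies in 2 overlapping genes to neither, and other members had fewer counts with strand ignored than on their own strand. DNAJC17, a splicing-related protein, had 2916 Takara counts with strand ignored and 9467 on its strand. DNAJB12 had 3023 and 6978, and DNAJC16, which overlaps AGMAT, 2136 and 4077. With same-strand counts the 5 members called in Takara were the same 5, beside 3621 of 12325 genes.

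**Figure D5:**
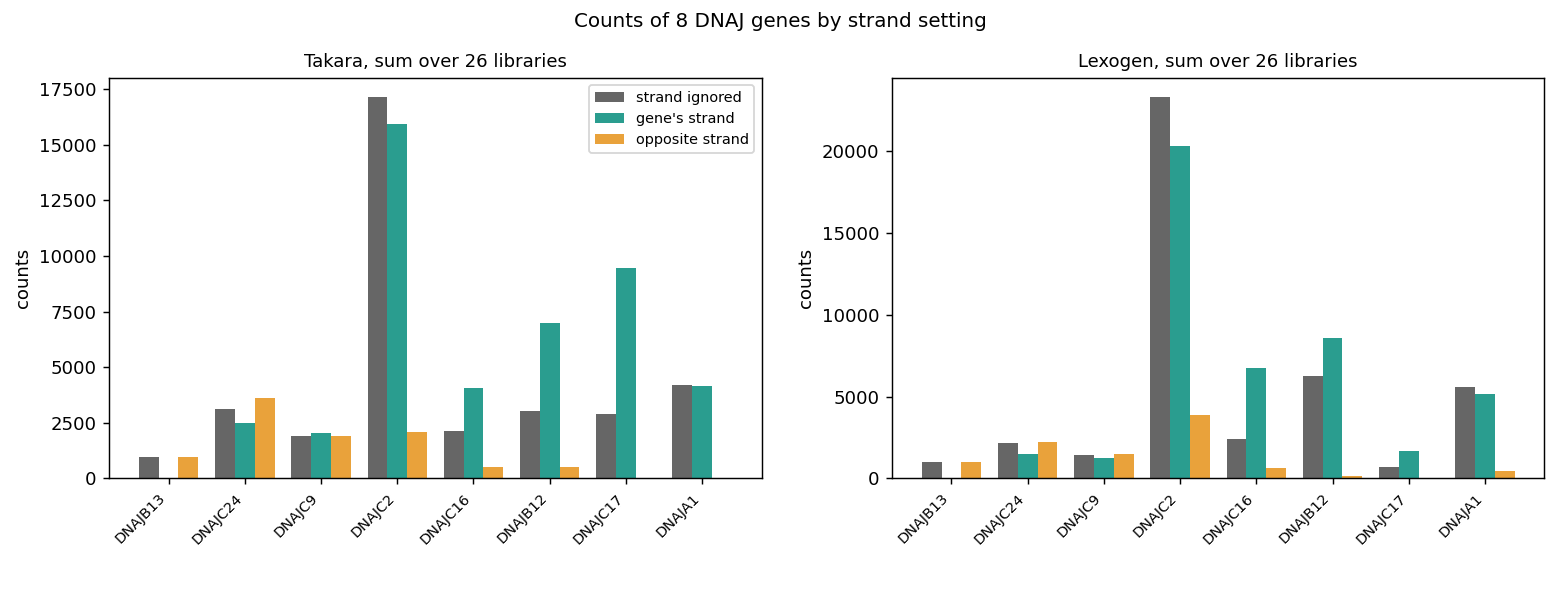
Counts of 8 DNAJ genes summed over 26 libraries per kit (y axis from 0, its scale differing between panels), with strand ignored (grey), on the strand of the gene (green) and on the opposite strand (orange). DNAJB13 has almost all of its counts on the opposite strand, and DNAJA1 almost all on its own.

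The partners of the DNAJ proteins were counted from a list. Of the 12 HSP70 and HSP110 genes tested in Takara, 4 rose and 0 fell by edgeR, beside 18.4% and 10.5% of all genes. The list has 15 genes in the count tables, and the low-count filter left out HSPA6, HSPA12A and HSPA12B. HSPA6 had a median of 0.378 CPM in controls and 2.12 CPM after heat, and was higher in 12 of 12 calves. HSPA12B was higher in 6 of 12 calves, and HSPA12A had counts in 1 library. HSPA1A, the inducible HSP70, had 15.9, 19.3 and 41.7 CPM in controls (lowest, median, highest) and 29.3, 54.2 and 1040 CPM after heat, with a rise in 12 of 12 calves and a log2 fold change of 2.51 ± 0.50 (edgeR adjusted p = 0.000821). The value of 1040 CPM belonged to animal 18, and without that heat stress library the log2 fold change of HSPA1A was 1.31 (edgeR adjusted p = 0.000576). HSPA8, the constitutive HSC70, rose by 1.38 ± 0.26 (edgeR adjusted p = 0.000563), and HSPH1, an HSP110 exchange factor, by 1.28 ± 0.22 (edgeR adjusted p = 0.000371). HSPA1L rose as well (1.38 ± 0.35, edgeR adjusted p = 0.00501). Without the same library these 3 were 1.03, 1.00 and 0.92 in that order and still passed. HSPA5, the HSP70 of the reticulum and partner of DNAJB9, had 0.25 ± 0.14 and did not pass (edgeR adjusted p = 0.188).

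In Lexogen 2 of 10 HSP70 and HSP110 genes rose, beside 5.55% of all genes called in either direction. HSPA1A had 6.02, 16.5 and 30.9 CPM in controls and 12.4, 52.2 and 695 CPM after heat, and a log2 fold change of 2.57 ± 0.47 (edgeR adjusted p = 0.00108), or 1.62 without the heat stress library of animal 18 (edgeR adjusted p = 0.00279). HSPH1 had 1.40 ± 0.33 (edgeR adjusted p = 0.00813), or 0.92 without that library (edgeR adjusted p = 0.0229), and did not pass with the calf as a paired block (edgeR adjusted p = 0.139). HSPA8 had 0.42 ± 0.19 in Lexogen, higher in 8 of 12 calves, and did not pass (edgeR adjusted p = 0.226). HSPA1L was not tested in that kit. The shares of all genes given above hold for the next lists too. Of 9 nucleotide exchange factors, BAG2 alone passed in Takara (0.49 ± 0.17, edgeR adjusted p = 0.0333) and 0 in Lexogen by edgeR. Among 12 other genes of the HSP70 system in Takara, HSP90AA1 (1.27 ± 0.23), STIP1 (0.71 ± 0.16), which links HSP70 to HSP90, and HSPB1 (0.55 ± 0.19) rose, and HSP90AA1 was the single one of 10 in Lexogen (0.94 ± 0.18), where it did not pass with the calf as a paired block (edgeR adjusted p = 0.0639). Of 5 J-domain proteins with other names, SEC63 of the reticulum rose (0.38 ± 0.09) and DNLZ of the mitochondrion fell (-0.59 ± 0.17) in Takara, and 0 passed in Lexogen by edgeR. With total counts on genes as library size, BAG2, STIP1, HSPB1 and SEC63 did not pass in Takara (edgeR adjusted p = 0.29, 0.0583, 0.2 and 0.283). BAG2 also missed the threshold without each of 5 single libraries (edgeR adjusted p of 0.0819 at most) and with no filter on low counts, and HSPB1 without the heat stress library of animal 12 (edgeR adjusted p = 0.0534) and with the calf as a paired block (edgeR adjusted p = 0.0687).

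Markers of several blood cell types were counted for the same comparison, and in bulk blood fewer cells of a type and less RNA per cell cannot be told apart. In Takara 7 of 8 neutrophil markers rose, and their summed level had a median of 11558 CPM in controls (4328 to 19832) and 42398 CPM after heat (3771 to 109300), led by S100A12. Of 10 T cell markers 6 fell, with a summed median of 1730 CPM in controls (1433 to 2623) and 1206 CPM after heat (819 to 2106), led by CD3D. Of 6 B cell markers 1 fell (BLK), and the summed median was 685 CPM in controls (461 to 816) and 484 CPM after heat (187 to 827), led by MS4A1. NCR1 rose among 5 NK cell markers, whose summed median was 298 CPM in controls (208 to 738) and 385 CPM after heat (259.2 to 1052), led by GNLY. None of 3 tested platelet markers passed (summed median 2327 CPM in controls, 1155 to 6045, and 2044 CPM after heat, 1144 to 3734, led by PF4), nor did either of 2 tested erythroid markers (1701 CPM, 470 to 3542, and 1133 CPM, 610 to 2548, led by HBB, with HBA1 at 0).

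In Lexogen 6 of 8 neutrophil markers rose, with a summed median of 3658 CPM in controls (1250 to 7028) and 10591 CPM after heat (1673 to 32836), and NCR1 rose among NK cell markers. No marker of T cells, B cells, platelets or erythroid cells passed there by edgeR. The summed median of the T cell markers was 796 CPM in controls (599 to 1075) and 593 CPM after heat (358 to 1052), led by TCF7. For B cells it was 394 CPM in controls (221 to 536) and 278 CPM after heat (85.5 to 539), led by MS4A1. For NK cells it was 40.2 CPM in controls (20 to 126) and 87.7 CPM after heat (11.5 to 222), led by NCR1. Platelet markers summed to 759 CPM in controls (266 to 2232) and 706 CPM after heat (44.8 to 1285), led by PF4, and erythroid markers to 334 CPM in controls (125 to 630) and 267 CPM after heat (146 to 651), led by HBB, with HBA and HBA1 at 0. The part of cell composition in the DNAJ values was not tested.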

How the data were processed

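Whole-blood RNA of calves was sequenced with 2 kits. Per the labels, the authors checked reads with FastQC 0.11.9 and MultiQC 1.14, trimmed them with Trimmomatic 0.39 and aligned them with STAR 2.7.10b, whose deposited gene counts (1 unstranded and 2 stranded columns) are the values used. Which column the authors used is not stated, and the unstranded one was taken. No library repeats another's counts. Genes were filtered with filterByExpr, scaled by TMM and tested with edgeR 4.0.16 (R 4.3.3), heat stress against control within each kit, with Benjamini-Hochberg adjustment over all genes. Standard errors are the log2 fold change over the root of the F value. CPM values and calf directions (pseudocount 1) use the same scaling. Alternatives included DESeq2 1.42.0, other scalings, no filter, a replicate block and leaving out each library. Fits were tested on simulated data. After group means were removed, libraries of the same calf correlated in Takara (median r 0.236 over 12 calves) but not in Lexogen (0.00541, and -0.00244 between calves), and the calf was tried as a block in both. Members and lists were chosen with earlier results of these data known. Full values are given for each reported member called in a kit and for DNAJA1 and DNAJB1; others that are named were chosen after their values were seen. The comparison of kit levels in control samples and the alternatives for HSP70 system genes were added after seeing the data. So were the calf block in the test between ranges and the tests of members below the reporting depth. The fits without libraries over 50% on no single gene were also added then.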

Additional observations from a re-analysis of the deposited data

How the results depend on the processing

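With the calf as a replicate block, 5 of 38 Takara members passed, beside 3163 of all Takara genes (3646 without the block). The number of all genes called in Lexogen fell from 616 to 66. In sample-number range 1 alone, 3 Takara members passed (DNAJA1, DNAJC25 and DNAJC30), with 2630 Takara and 402 Lexogen genes. In range 2 alone, 2 Takara members passed (DNAJB9 and DNAJC14), with 931 Takara and 0 Lexogen genes by edgeR (1275 Lexogen genes at an unadjusted p under 0.05), from fewer libraries. Neither member passed in range 2 without the 3 Takara control libraries over 50% on no single gene (edgeR adjusted p = 0.393 for both). That fit kept 9 libraries, and its share of all genes passing is not given. DESeq2 called 1006 Lexogen genes, and edgeR without a filter on low counts 3273. With total counts as library size, the median of the Takara members was -0.21, the share of called Takara genes that rose went from 63.8% to 37.4%, and 1 member (DNAJC14) had a heat effect that differed between ranges; with same-strand counts 1 member did (DNAJB12). The cause of these changes was not tested.

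Leaving out 1 library at a time gave 4 to 8 Takara members called, 8 without the heat stress library of animal 32, and 0 Lexogen members by edgeR throughout. The number of all genes called ran from 2921 to 4359 in Takara and from 444 to 784 in Lexogen, and the member median from -0.07 to 0.03 and from -0.27 to -0.13. With animal 20 counted as heat stress, 7 Takara members passed, while all Takara genes called went from 3646 to 4200. Leaving out the 3 Takara control libraries over 50% on no single gene, 4 members (DNAJC14 lost) and 2406 genes passed. HSPA5 in Takara had -0.039 in range 1 alone (edgeR adjusted p = 0.868). Of the HSP70 system genes called in Takara, BAG2, STIP1, HSPB1 and DNLZ did not pass in range 1 alone, nor HSPA1L, BAG2, HSP90AA1, HSPB1, SEC63 and DNLZ in range 2 alone, nor BAG2, HSPB1 and DNLZ without those 3 libraries.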
